A study of Mus musculus with 2 samples.

Results

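The genes described here encode the proteins of the cytosolic ribosome of the mouse. They were taken by symbol alone, as every row whose symbol is Rpl or Rps followed by a number, plus Rplp0, Rplp1, Rplp2 and Rpsa, without symbols holding -ps and without the Rps6k kinases. This gave 94 genes of the 30457 in the tables, 55 with large subunit symbols and 39 with small subunit symbols. All 94 were in the annotation, which lists 87 as protein coding, 5 as processed pseudogenes and 2 as transcribed processed pseudogenes. The rule therefore takes in a few rows that are not ordinary ribosomal proteins, such as Rps19bp1, which encodes a protein that binds Rps19. The pseudogene rows are Rps3a2, Rps3a3, Rps12l1, Rpl6l, Rpl32l, Rpl37rt and Rps4l.

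The ribosome reads mRNA and joins amino acids into protein. Its small subunit decodes the mRNA and its large subunit forms the peptide bond, and each is built from ribosomal RNA and a set of proteins. The mRNAs of these proteins are among the most abundant in lymphocytes, and most begin with a run of pyrimidines, the terminal oligopyrimidine tract, through which their translation is controlled together. Rplp0, Rplp1 and Rplp2 form the stalk of the large subunit, which recruits elongation factors.

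Spleen cells were captured on a BD Rhapsody cartridge, where single cells are lysed in wells beside beads whose primers carry a cell barcode. All cells came from the same pool of 3 spleens of female C57BL/6J mice that carried subcutaneous Lewis lung carcinoma, were 10 weeks old at injection of the tumour cells, received 200 μg of anti-CD4 antibody per shot on days 5 and 9, and were sampled on day 12. No untreated or tumour-free group was analysed here. The pooled cells were treated with a red cell lysis buffer, frozen, thawed and loaded as 2000 cells on 1 cartridge, whose beads were then split. One portion went to TAS-Seq, which tails the cDNA with terminal transferase under stochastic chain termination, and the other to the BD WTA kit, which uses random primers. With 1 library from each portion, no difference between methods, classes or genes could be tested against replicates. Values are given for both libraries. The molecular identifiers of the beads were not used in the counts, so amplified copies of a molecule count as separate reads. The intervals, at 95%, therefore cover the counting of reads or the sampling of cells only.

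The TAS-Seq table held 38656790 reads on 736 barcodes, and that of BD WTA held 31608259 reads on 716 barcodes, with 0 barcodes in common. After filtering, 732 and 708 cells remained, with medians of 46557 and 38426 reads per cell. Cells were classified by clustering without the ribosomal protein genes and their near copies, and clusters were named from fixed markers. In each library 365 cells were B-like, from clusters with raised Cd79a, Cd79b and Ms4a1 among others. T-like cells numbered 256 in TAS-Seq and 290 in BD WTA, from clusters in which all 6 T-cell markers were raised. Median depth differed between the classes, with 40852 reads per B-like and 52412 per T-like cell in TAS-Seq and 35457 and 42310 in BD WTA. Shares were therefore also taken with every cell thinned to 20000 reads.

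T-like cells devoted a larger share of their reads to ribosomal protein genes than B-like cells did, in both libraries. In TAS-Seq the share per cell had a median of 20.1% in T-like cells (interquartile range 17.1 to 22.4) and 12.3% in B-like cells (10.7 to 14.2). In BD WTA the medians were 16.98% (13.0 to 19.9) and 10.98% (9.42 to 12.7). The difference of the medians, B-like minus T-like, was -7.82 percentage points in TAS-Seq (interval -8.74 to -6.78) and -6.00 in BD WTA (-7.61 to -5.04). With every cell thinned to 20000 reads the differences were -7.73 and -6.24. The classes overlapped at their edges. In TAS-Seq 94.1% of T-like cells were above the B-like median and 1.64% of B-like cells were above the T-like median. In BD WTA these shares were 83.8% and 1.37%.

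**Figure D1:**
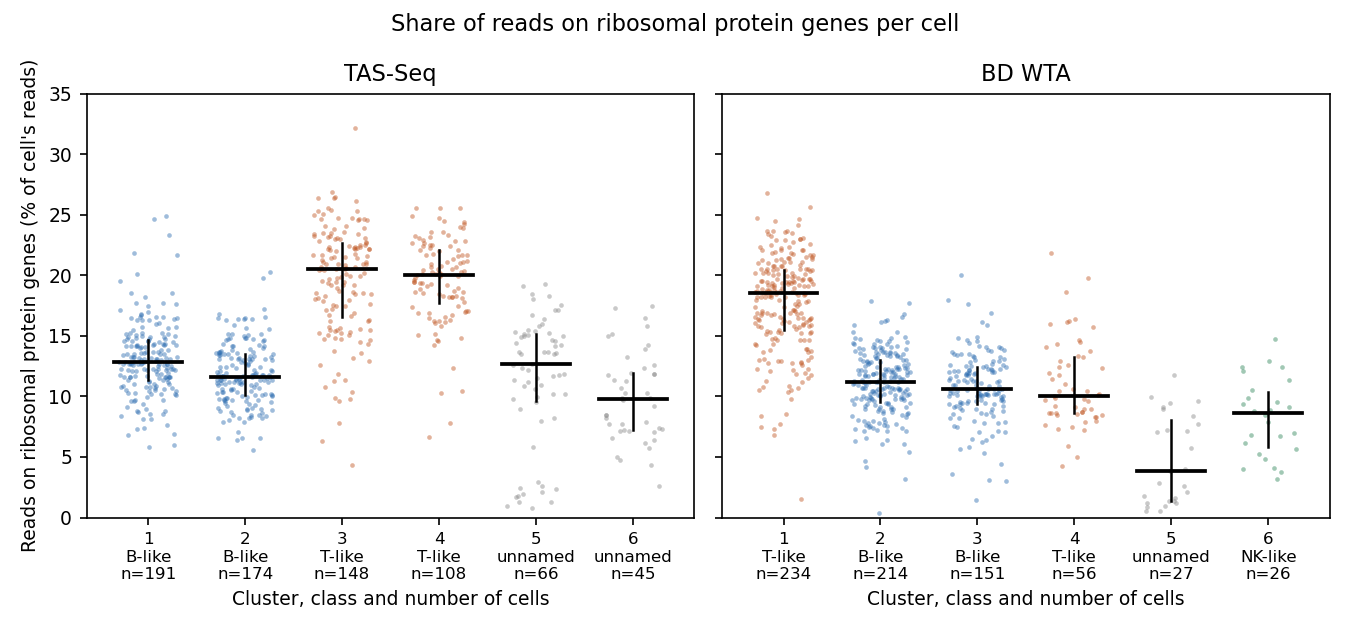
Share of each cell's reads on the 94 ribosomal protein genes, in percent, by cluster in the TAS-Seq (left) and BD WTA (right) libraries. Each point is a cell, horizontal lines are medians and vertical lines the interquartile range; the T-like clusters lie highest, apart from BD WTA cluster 4, whose median of 10.1% is near that of the B-like clusters.

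Pooled over cells, ribosomal protein genes took 19.9% of the reads of T-like cells (interval 19.88 to 19.92) and 12.7% of those of B-like cells (12.65 to 12.68) in TAS-Seq, a ratio of 1.57. In BD WTA the pooled shares were 16.2% and 11.2%, a ratio of 1.45. Both subunits took part about equally. The B-like median for large subunit genes was 0.605 of the T-like median in TAS-Seq and 0.636 in BD WTA, and for small subunit genes 0.618 and 0.640. The stalk genes stood further apart, at 0.439 and 0.510. Within a class, cells with more large subunit reads also had more small subunit reads, with Spearman's rho over cells between 0.738 and 0.901 in the 4 combinations of class and library. These cells share a library, and the shares have a common denominator. The correlation of the share with the number of reads of a cell was weaker, between -0.01 and 0.254.

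Reads on other abundant genes enter the denominator of this share. Mitochondrially encoded genes had B-like and T-like medians of 5.79% and 5.68% in TAS-Seq and 7.70% and 7.89% in BD WTA, and the intervals of both differences held 0. Immunoglobulin genes took 1.77% and 0.0365% of reads per cell in TAS-Seq and 2.099% and 0.0054% in BD WTA, medians again for B-like and T-like cells. Pooled over cells they took 2.27% of B-like reads in TAS-Seq and 4.79% in BD WTA, and 0.0524% and 0.0881% of T-like reads. In BD WTA the T-like value was 0.25% in cluster 4 and 0.0346% in cluster 1. In BD WTA 4 B-like cells had over 10% of their reads on immunoglobulin genes and held 58.5% of the B-like immunoglobulin reads. In TAS-Seq 1 such cell held 23.2%. Without these cells the pooled B-like values were 1.77% in TAS-Seq and 2.09% in BD WTA. Shares over 10% are known of antibody-secreting cells, and the 4 cells and 1 cell stayed in the B-like class. Without immunoglobulin reads in the denominator the differences of the medians were -7.56 and -5.71 percentage points. Both remained inside the intervals given above.

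The T-like clusters were not alike in BD WTA. Cluster 1, with 234 cells, had Lef1, a gene of naive T cells, at 515 CPM (reads per 1000000 reads) against 216 CPM in cluster 4, and had a median share of 18.5% (interquartile range 15.5 to 20.5). Cluster 4, with 56 cells and Il2rb and Id2 among its leading genes, had 10.1% (8.60 to 13.3), below the B-like cluster 2 at 11.2%. Cluster 4 also held reads of Cr2, a complement receptor of B cells, at 178 CPM, against 0.6 CPM in cluster 1 and 1140.0 CPM in cluster 2, and the part of these reads in its low share was not tested. Of the 88 ribosomal protein genes tested, 86 were higher in cluster 1 than in cluster 4. Of these, 60 were higher by at least 0.5 on the log2 scale. The median log2 ratio of the 88 was 0.60, against -0.17 over all genes tested. Rpl7l1 was past 0.5 in the other direction, with a log2 ratio of -0.95. Of all 6009 genes tested, 2500 were higher in cluster 1, 1273 of them by at least 0.5. In cluster 4, 2068 were higher by at least 0.5. Between cluster 4 and the B-like cluster 2 none of the 88 genes differed by 0.5, against 1478 and 1775 of all 6009 genes tested that were higher in cluster 2 and in cluster 4. In TAS-Seq cluster 6 had 6 raised T-cell markers, 3 raised NK-cell markers, and Il2rb and Id2 among its leading genes. It was left unnamed because its top 10 genes held NK-cell markers and no T-cell marker. Its median of 9.77% was near that of BD WTA cluster 4. The T-like clusters 3 and 4 of TAS-Seq had medians of 20.5% and 20.1%, although Ccl5, a chemokine of effector and memory cells, was at 43 CPM in cluster 3 and 800 CPM in cluster 4.

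Clusters outside the B-like and T-like classes had medians below those of the TAS-Seq T-like clusters and of BD WTA cluster 1. In TAS-Seq cluster 6 (45 cells, with Ccl5, Nkg7 and Gzma leading) 87 of the 88 genes were lower than in T-like cluster 3. Of all 6009 genes tested 2603 were. In BD WTA the 26 NK-like cells had a median of 8.61%. There 87 of 88 genes were lower than in T-like cluster 1, against 2982 of all 6009. The lowest median was that of BD WTA cluster 5. This cluster (27 cells, unnamed, led by Tyrobp, Fcer1g and Cst3) had a median of 3.86%, and 15 of its cells were under 5%. TAS-Seq cluster 5 (66 cells, unnamed, with raised B-cell markers beside Tyrobp and Cybb) was split, with a median of 12.6% and 12 cells under 5%. Under 5% there were also 1 T-like cell and no B-like cell in TAS-Seq, and 3 T-like and 9 B-like cells in BD WTA.

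Single genes were compared as CPM of the pooled reads of a class, by the log2 ratio of B-like over T-like cells after 0.5 CPM was added. A gene was counted as past the limit when the ratio was at least 0.5 in absolute value with the same sign in both libraries. Of the 94 genes, 88 passed the filter on low levels (a mean of 20 CPM in each library), and 41 of these were past the limit, 40 higher in T-like and 1 higher in B-like cells. Among all 6009 genes tested 30.6% were past the limit, 16.7% higher in B-like and 13.8% higher in T-like cells. The ribosomal protein genes were thus past the limit on the T-like side in 45.5% of cases. At any size, 86 of the 88 were higher in T-like cells in both libraries, 1 was higher in B-like cells, and 1 had opposite signs. Of all 6009 genes tested, 2131 were higher in T-like and 2356 higher in B-like cells in both libraries. Their median log2 ratio was -0.63 in TAS-Seq and -0.50 in BD WTA, against 0.12 and -0.06 over all genes tested. Scaling by the trimmed mean of M-values moved the median ratio of all genes by -0.21 in TAS-Seq and 0.01 in BD WTA. Again 86 of the 88 were higher in T-like cells, and the matching count over all genes was not made with this scaling.

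**Figure D2:**
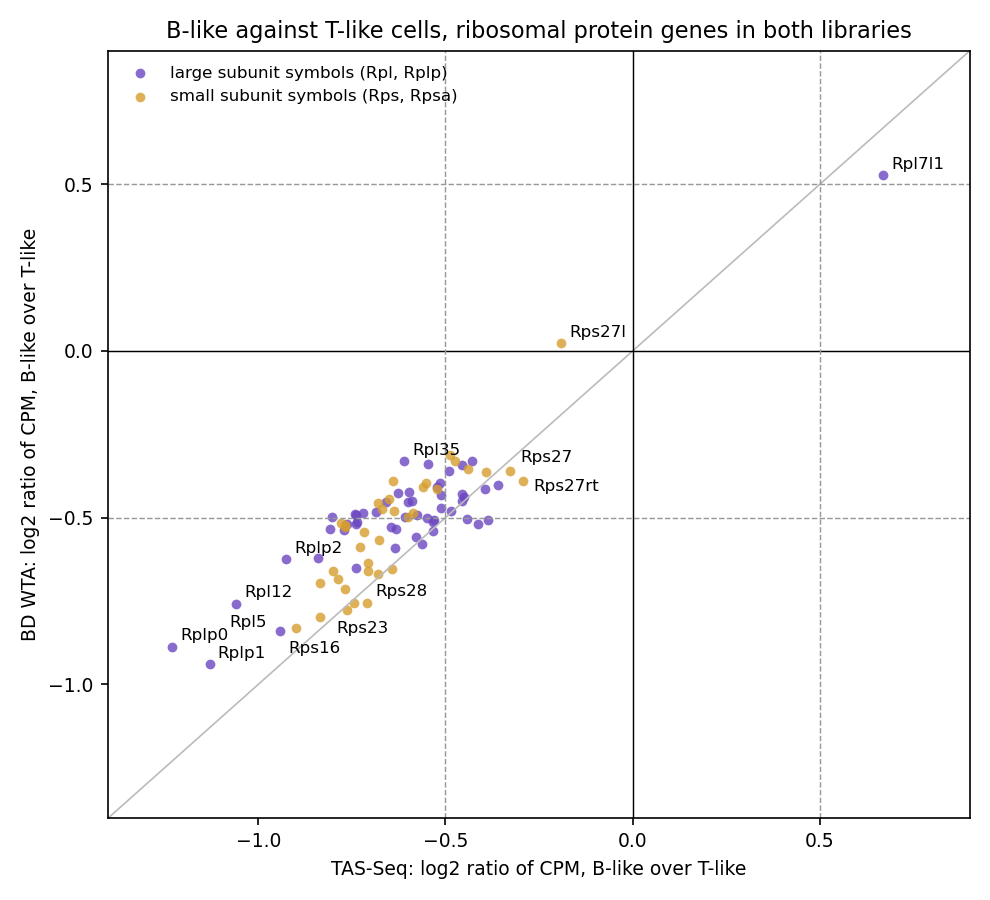
Log2 ratio of CPM in B-like over T-like cells for the 88 ribosomal protein genes tested, TAS-Seq on the x axis and BD WTA on the y axis, coloured by subunit symbol. Dashed lines mark the limit of 0.5 and the grey diagonal equal ratios; nearly all genes lie in the lower left, the stalk genes Rplp0 and Rplp1 farthest out, Rps27l lies near 0 and Rpl7l1 alone lies in the upper right.

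The count depended on the limit because most ratios lay close to it. At a limit of 0.25, 87 of 88 genes were past it, against 50.1% of all genes tested. At a limit of 1 none was, against 13.3%. The BD WTA ratio was below -0.5 in fewer genes than the TAS-Seq ratio. Leaving out BD WTA cluster 4 raised the count from 41 to 66, with all 41 kept. The share of all genes tested was then 33.8%. Without immunoglobulin reads in the denominator the count was 24. Without the 5 B-like cells with over 10% immunoglobulin reads it was 27. All of these were among the 41. Of all genes tested, 30.1% and 30.4% were past the limit in these settings, so the counts in either direction lay near the background. On the T-like side were 23 and 26 of the 88, against 11.9% and 12.8% of all genes tested. In the latter setting 87 of the 88 were higher in T-like cells in both libraries at any size, a count that was not made over all genes. Across the 88 genes the ratios of the libraries were related, with Pearson's r of 0.876 and Spearman's rho of 0.764, as a description over genes that share the cells and beads of 1 cartridge. Over the 5921 other genes tested the coefficients were 0.876 and 0.710.

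The stalk genes Rplp0 and Rplp1 had the most negative ratios in both libraries, and Rplp2 was less extreme. Rplp1, at chr9:61913284-61914542 in GRCm38, was at 2667 CPM in B-like and 5855 CPM in T-like cells of TAS-Seq, and at 2461 and 4719 CPM in BD WTA. Its log2 ratios were -1.13 and -0.94. Per cell, 95.7% of T-like cells in TAS-Seq and 88.3% in BD WTA were above the B-like median for this gene. Rplp0, at chr5:115559467-115563727, which anchors the other stalk proteins to the ribosome, was at 1248 and 2926 CPM in B-like and T-like cells of TAS-Seq and at 1277 and 2361 CPM in BD WTA. Its log2 ratio of -1.23 in TAS-Seq was the lowest of the 88 genes, with -0.89 in BD WTA. Rplp2, at chr7:141447370-141451585, was at 2131 and 4046 CPM in TAS-Seq and 1755 and 2706 CPM in BD WTA, with ratios of -0.93 and -0.63. All 3 were past the limit, and the counting intervals of the classes did not overlap for any of them in either library. In BD WTA cluster 4 they were nearer to the B-like levels, with 1649 CPM for Rplp0, 2914 for Rplp1 and 1802 for Rplp2, against 2596, 5315 and 3005 CPM in cluster 1.

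Other genes of the large subunit followed. Rpl5, which binds the 5S ribosomal RNA and lies at chr5:107900502-107909005, was at 946 and 1819 CPM in B-like and T-like cells of TAS-Seq and at 1334 and 2391 CPM in BD WTA, with log2 ratios of -0.94 and -0.84. Rpl12, a protein at the base of the stalk, had ratios of -1.06 and -0.76, with 1154 and 2411 CPM in TAS-Seq and 601 and 1017 CPM in BD WTA. Rpl3, a core protein near the peptidyl transferase centre, was also past the limit, at -0.81 and -0.54. Rpl22, which is dispensable for translation and required for the development of αβ T cells, was at -0.41 and -0.52. Its paralog Rpl22l1 was at -0.76 and -0.52, so only the paralog passed the limit in both libraries. Rpl10 (-0.39 and -0.51), Rpl7 (-0.44 and -0.50), Rpl39 (-0.69 and -0.48), Rpl36a (-0.80 and -0.50), Rpl36al (-0.40 and -0.41) and Rpl41 (-0.49 and -0.36) were higher in T-like cells without passing the limit in both. In TAS-Seq these ratios lay on both sides of the median of -0.63.

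Among small subunit genes 19 of 36 tested were past the limit, all higher in T-like cells, against 22 of 52 large subunit genes, 21 of them higher in T-like cells. Rps16 had the strongest ratios, -0.90 and -0.83, with 2427 and 4523 CPM in B-like and T-like cells of TAS-Seq and 2163 and 3848 CPM in BD WTA. Rps23, a protein of the decoding centre, followed with -0.84 and -0.80. Rps6, the substrate of the S6 kinases, was at 932 and 1583 CPM in TAS-Seq and 718 and 1231 CPM in BD WTA, ratios of -0.76 and -0.78. Rpsa, the laminin receptor homolog of the small subunit, was at -0.78 and -0.52, the ubiquitin fusion gene Rps27a at -0.73 and -0.59, the X-linked Rps4x at -0.77 and -0.52, and Rps3a1 at -0.71 and -0.64. These genes were past the limit in both libraries.

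Ranked by the ratio nearer to 0 of the libraries, and after Rps27l, the weakest T-like excess was that of Rps27, Rps12, Rpl26, Rpl35 and Rpl11 and of the copies Rps27rt and Rps12l1. For Rpl35 and Rpl11 this was set by BD WTA, since their TAS-Seq ratios were nearer to the median. Rps27, a zinc-binding protein of the small subunit at chr3:90212522-90213651, was at 3776 and 4738 CPM in B-like and T-like cells of TAS-Seq and at 4337 and 5562 CPM in BD WTA, log2 ratios of -0.33 and -0.36. Its cells overlapped widely, with 72.3% and 65.5% of T-like cells above the B-like median. Rpl26, which is known to bind the mRNA of p53, was at -0.43 and -0.33. Rpl11, which with Rpl5 binds the ubiquitin ligase Mdm2, was at -0.55 and -0.34. Rps12 was at -0.47 and -0.33 and Rpl35 at -0.61 and -0.33. None of these was past the limit in both libraries.

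Of the 88 genes tested, Rpl7l1 alone was higher in B-like cells in both libraries. It encodes a paralog of Rpl7 that takes part in the assembly of the large subunit, and lies at chr17:46773907-46782672. Its level was 76.3 CPM in B-like (interval 72.1 to 80.6) and 47.8 CPM in T-like cells (44.3 to 51.5) of TAS-Seq, and 57.3 (53.6 to 61.2) and 39.6 CPM (36.3 to 43.1) in BD WTA. The log2 ratios were 0.67 and 0.53. It fell below the limit with trimmed mean scaling and with a mitochondrial limit of 10%, and its direction held. At 20000 reads per cell a read of it was seen in 28.3% of B-like and 19.5% of T-like cells in TAS-Seq and in 13.9% and 9.33% in BD WTA. In the T-like class of BD WTA 5 cells held 46.9% of its reads.

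**Figure D3:**
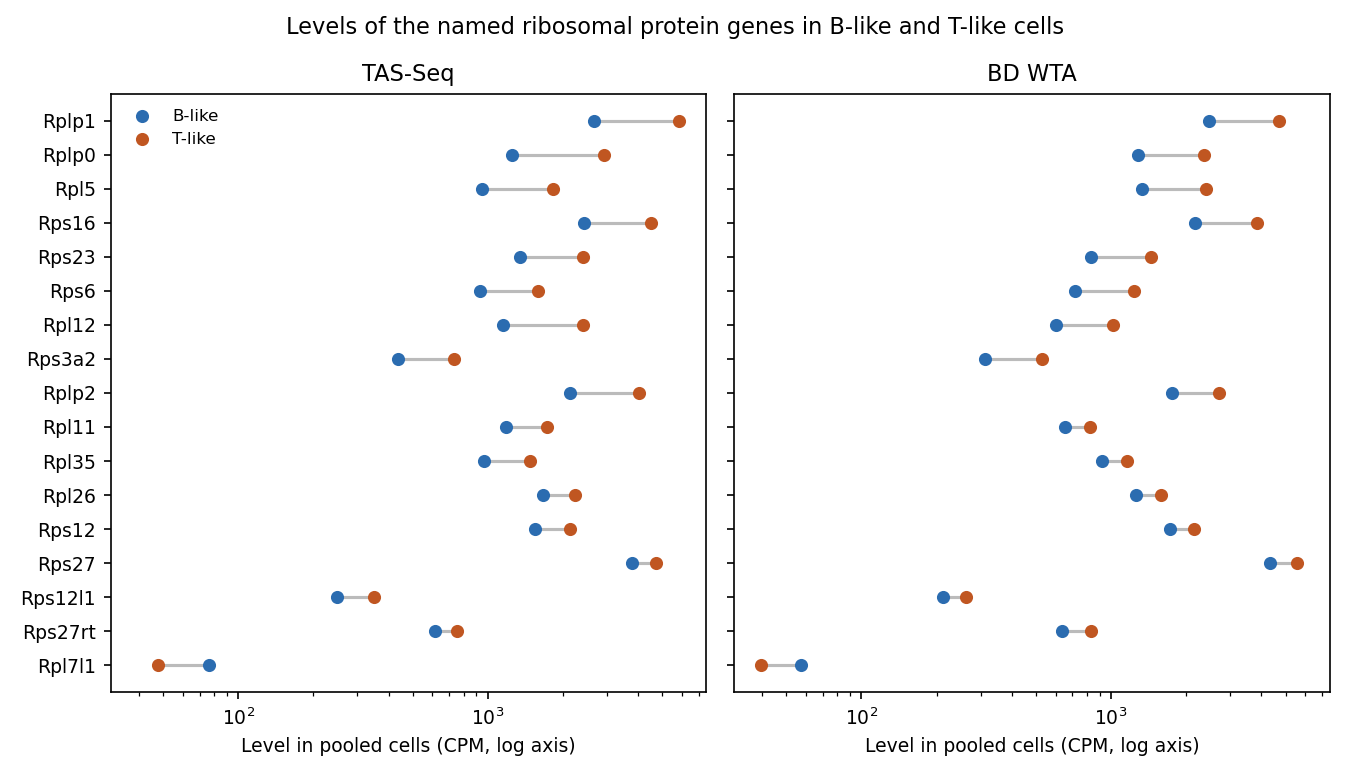
Pooled level in CPM, on a log axis, of the named ribosomal protein genes in B-like (blue) and T-like (orange) cells of each library. T-like points lie to the right of B-like points for every gene shown except Rpl7l1 in the last row, and the distance is widest for Rplp1, Rplp0 and, in TAS-Seq, Rpl12.

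When each gene was taken as a part of all ribosomal protein reads, so that the common difference dropped out, few genes stood apart. A difference of at least 0.25 on the log2 scale in the same direction in both libraries was seen for 5 of 88 genes. Rplp0, Rplp1 and Rpl5 were a larger part in T-like cells. Rplp1 made up 2.11% of ribosomal protein reads in B-like and 2.94% in T-like cells of TAS-Seq and 2.19% and 2.91% in BD WTA. Rpl7l1 and Rps27l were a larger part in B-like cells. The sign was the same in both libraries for 68 of the 88 genes.

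Windows of 30 bases around the start of the gene are shown for 4 genes of the T-like end and 4 of the other end, to set the pyrimidine tract beside their ratios. They are RefSeq sequences of GRCm38.p6, in the direction of transcription, with 15 bases before the start and 15 from it on. Capitals mark a run of at least 6 C or T that begins with C, searched on the strand printed here.
Rps6 (chr4:86857353-86857382, minus strand): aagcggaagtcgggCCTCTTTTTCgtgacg
Rpl12 (chr2:32961697-32961726, plus strand): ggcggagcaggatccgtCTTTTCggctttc
Rplp0 (chr5:115559452-115559481, plus strand): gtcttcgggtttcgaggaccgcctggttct
Rpl5 (chr5:107900513-107900542, plus strand): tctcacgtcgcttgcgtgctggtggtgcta
Rpl35 (chr2:39005117-39005146, minus strand): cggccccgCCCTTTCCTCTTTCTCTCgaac
Rps27 (chr3:90213634-90213663, minus strand): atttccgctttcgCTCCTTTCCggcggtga
Rpl26 (chr11:68901551-68901580, plus strand): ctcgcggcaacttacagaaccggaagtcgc
Rpl7l1 (chr17:46782642-46782671, minus strand): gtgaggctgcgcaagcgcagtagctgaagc

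The table held 69 of the 94 genes, with 81 windows. A tract was found in 49.4% of these windows against 22.5% of all 32851 windows, and on the opposite strand in 8.64% against 25.5%. Genes with and without a tract had similar ratios of B-like over T-like cells. The median log2 ratio was -0.61 in TAS-Seq and -0.50 in BD WTA for the 37 tested genes with a tract, and -0.66 and -0.49 for the 27 without. The even split in the windows above comes from the choice of genes shown. Among the named genes of the T-like end with a window, the strongest, Rplp0, Rpl5 and Rps16, had no tract. The next, Rps23, Rps6 and Rpl12, had one. At the other end Rps27rt, Rps27, Rps12 and Rpl35 had a tract, and Rpl7l1, Rpl26 and Rpl11 had none. The start given by RefSeq can differ from the start used in these cells, and a window without a tract says only that these letters are not in it.

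Many of these genes have near copies, and reads can be divided between them. Of the 31-base words of the longest transcript, a median of 38.8% per gene was also found in another gene, and for 29 genes at least 50% were. Rps27rt was the same as Rps27 over all 341 bases aligned, and Rps12l1 the same as Rps12 over 399 bases. The levels of such pairs could not be separated. The ratios of the pairs were close, -0.29 and -0.39 for Rps27rt in TAS-Seq and BD WTA and -0.49 and -0.31 for Rps12l1. Rps3a2 differed from Rps3a1 at 4 of 792 bases and Rps3a3 at 9 of 795. The stretch below, from the transcripts of GENCODE release M21, shows where reads could tell the 3 apart, with capitals at the bases that are not the same in all.
Rps3a1 (bases 772 to 801): aaaagtAaaaatgctgaagaaAcccaagtT
Rps3a2 (bases 639 to 668): aaaagtTaaaatgctgaagaaAcccaagtC
Rps3a3 (bases 639 to 668): aaaagtAaaaatgctgaagaaGcccaagtT

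The rows Rps3a2, at chr14:88123017-88123808, and Rps3a3, at chr13:108670603-108671397, are processed pseudogenes. Their log2 ratios were -0.74 and -0.76 for Rps3a2 and -0.68 and -0.57 for Rps3a3, beside -0.71 and -0.64 for Rps3a1. The 304 rows with -ps in the symbol moved with the genes as well. They took a median of 2.29% of reads in B-like and 3.82% in T-like cells of TAS-Seq and 1.71% and 2.69% in BD WTA. Of the 155 tested, 77 were past the limit, all on the T-like side. This is 49.7%, against 13.8% of all genes tested on that side. Reads can be divided between these rows and the genes, so their ratios are not a separate observation.

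A few members were near 0 in spleen. Rpl10l, the testis paralog of Rpl10, had 0 reads in TAS-Seq, which allows up to 0.0778 CPM, and 5 reads in BD WTA. Rpl3l, the paralog of striated muscle, was listed in the TAS-Seq table alone, with 8 reads. Rpl39l had 126 and 2 reads. Rps4l, a transcribed pseudogene at chr6:148354656-148355598, was at 9.24 CPM in B-like (interval 7.84 to 10.8) and 0.691 CPM in T-like cells (0.331 to 1.27) of TAS-Seq and at 1.79 (1.19 to 2.58) and 0.301 CPM (0.0819 to 0.770) in BD WTA. Its B-like reads came from few cells, since 5 cells held 92.3% of them in TAS-Seq and 71.4% in BD WTA. At 20000 reads it was seen in 1.70% of B-like and 2.03% of T-like cells of TAS-Seq and in 1.51% and 0.746% in BD WTA. The intervals of these shares overlapped between the classes in both libraries. Rps19bp1 was at 24.2 and 31.2 CPM in TAS-Seq and 11.1 and 2.18 CPM in BD WTA, in opposite directions and under the level filter in BD WTA. Rps27l, a paralog of Rps27 induced by p53, passed the filter and was at 114 CPM in T-like cells of TAS-Seq, with a B-like interval of 95.3 to 104.9 CPM, and at 27.4 and 26.98 CPM in BD WTA. It was the tested gene with opposite signs, -0.19 and 0.02.

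Other genes of translation were compared in the same way, as lists chosen by function. Rack1, a protein of the small subunit that has another kind of symbol, was past the limit, at -0.72 and -0.51. Fau, which encodes a small subunit protein as a fusion, was at 0.01 and -0.22. Of 18 translation factors and other mRNAs with a pyrimidine tract, 6 were past the limit, all higher in T-like cells, with medians of -0.47 and -0.39. This share, 33.3%, was near the 30.6% of all genes tested that were past the limit in either direction. On the T-like side alone, 13.8% of all genes tested were past it. The 6 included Eef1b2, an exchange factor of elongation, at -1.05 and -0.97, and Tpt1 at -1.09 and -0.92. Eef1a1, the factor that brings aminoacyl-tRNA to the ribosome, was at -0.67 and -0.64. Of 19 genes of ribosome assembly 2 were past the limit, Nhp2 and Nop10, both on the T-like side, with medians of 0.09 and -0.11. Mitochondrial ribosomal proteins had 8 of 50 past the limit, 6 of them on the T-like side, with medians of -0.04 and -0.29. For both of these lists the share past the limit was below the 30.6% of all genes tested.

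The methods also differed in how many reads fell on these genes. Over all cells, 15.2% of TAS-Seq reads (interval 15.23 to 15.25) and 13.1% of BD WTA reads (13.05 to 13.07) were on ribosomal protein genes, a difference of 2.18 percentage points. It was 1.43 points in B-like cells alone and 3.65 in T-like cells alone. The B-like classes differed in S1pr3, a gene of B-cell subsets. In TAS-Seq it was at 114 CPM in the unnamed cluster 5 and at 0.967 and 4.12 CPM in the B-like clusters. In BD WTA it was at 34.5 and 0.0 CPM in the B-like clusters 2 and 3. The part of this in the B-like difference was not tested. The T-like classes held unlike clusters, and the T-like difference was 2.04 points (19.9% against 17.9%) without BD WTA cluster 4 and 2.24 points with TAS-Seq cluster 6 counted as T-like. Large subunit genes took 6.65% of pooled B-like reads in TAS-Seq and 5.45% in BD WTA, while small subunit genes took 6.01% and 5.78%. With 1 library per method, amplification and the cells that each portion of the beads held cannot be told apart.

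Single genes were then compared between the methods, with the cells of each pooled and TAS-Seq as the numerator of the log2 ratio. Of 88 genes tested 14 differed by at least 1, 13 higher in TAS-Seq and 1 higher in BD WTA, which is 15.9% against 10.4% of all 6888 genes tested. The median ratio was 0.33 against 0.07 over all genes. Rps28 was the gene higher in BD WTA, at 1211 CPM in TAS-Seq and 3505 CPM in BD WTA, a ratio of -1.53. Rps29 (-0.85), Rpl38 (-0.81) and Rps26 (-0.70) followed without reaching 1. On the other side stood Rps27l at 1.93, Rpl36 at 1.84, with 559.8 and 156 CPM, Rpl8 at 1.48 and Rpl10a at 1.44. Across the 82 tested genes with a principal transcript the ratio was barely related to its length, with Spearman's rho of 0.0774. The order of the classes was kept for Rps28, with T-like above B-like cells in TAS-Seq (1627 and 995 CPM) and in BD WTA (4658 and 2760.0 CPM).

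**Figure D4:**
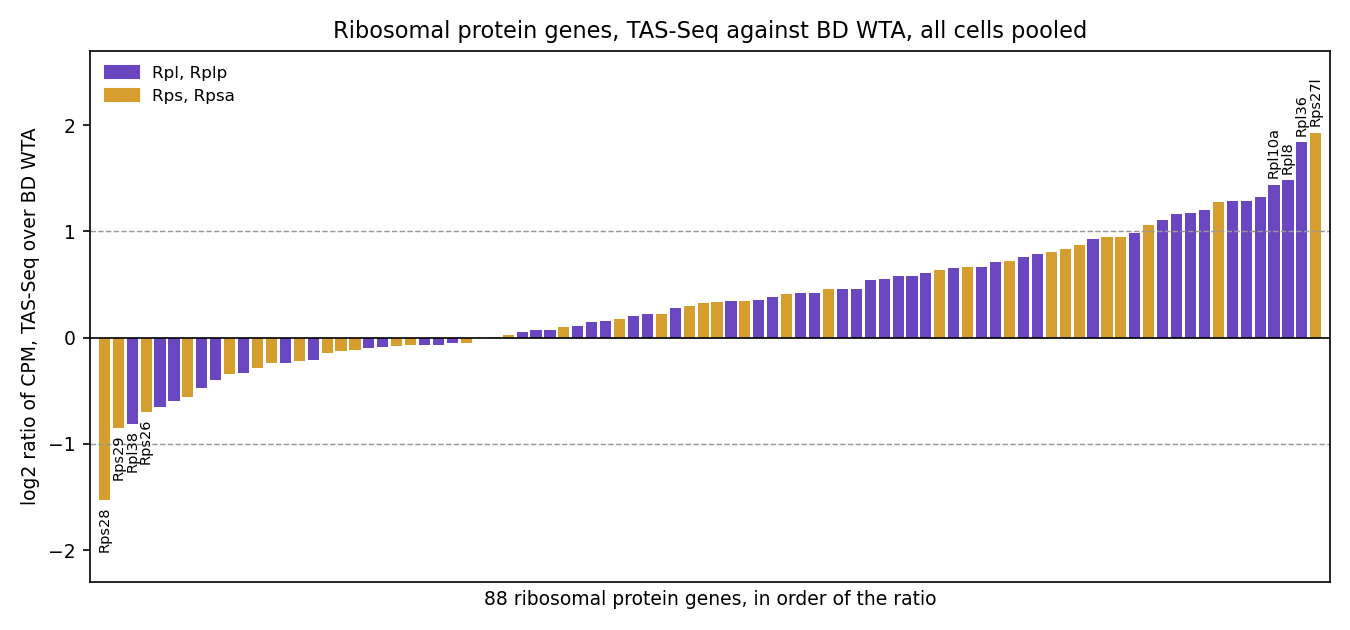
Ratio of pooled CPM, TAS-Seq over BD WTA, on a log2 scale for the 88 ribosomal protein genes tested, in order of the ratio and coloured by subunit symbol; the 4 at each end are named. Dashed lines mark a ratio of 1 in either direction, which 13 genes reach upward and Rps28 alone reaches downward.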

How the data were processed

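The deposited tables hold counts made by the authors: whole numbers of reads per gene and barcode, without unique molecular identifiers and without normalization. The submitters' processing notes name cutadapt 2.10, Bowtie2 2.4.2 and R 3.6.3 with builds GRCm38 and GRCh38. The methods of the study describe mapping to cDNA and non-coding RNA of GRCm38, so that reads can fall on pseudogenes and other copies, and amplification can set the size of a value. They also describe a background correction that sets low counts of a gene to 0. Whether it was applied to these tables is not given in the sources used here, and it would bear on every share of cells with a read and on reads of a gene in cells of another type. Genes listed by only 1 of the tables counted as 0 in the other. The study's text also describes fresh spleen cells, whereas the labels, which were followed here, give frozen ones.

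Cells with at least 500 genes and at most 25% mitochondrial reads were kept. Each library was clustered in Seurat 5.3.0 at a resolution of 1, without 1257 rows (the ribosomal protein genes, -ps rows and rows sharing at least 10% of 31-base words with them). A cluster was named, by a rule set after the clusters were seen, from the markers of each type. A marker was raised where its mean log2(CPM + 1) exceeded that of the remaining cells by 1 or more and 50% or more of the cluster had a read. A name needed 3 raised markers, and the top 10 genes had to include one and not favour another type. Scrublet (scanpy 1.11.5) called 3 and 4 doublets, which were kept.

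Log2 ratios were taken from pooled CPM with 0.5 added, over genes with a mean of 20 CPM and reads in at least 10 cells. Shares have exact binomial intervals, levels exact Poisson intervals and medians order-statistic intervals. With 1 library per method there was no test. The script for ratios was tested on simulated data. Trimmed mean factors came from edgeR 4.0.16. The named genes are the 8 highest and 8 lowest ratios between classes, ranked by the weaker library, the 4 highest and 4 lowest between methods, and fixed members and paralogs. The genes Nhp2, Nop10, Eef1a1, Eef1b2, Tpt1, Rps23rg1 and those of the clusters were named after their values were seen. Members and lists were chosen with earlier results of these data known. Positions came from GENCODE M21.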

Additional observations from a re-analysis of the deposited data

Results flagged for a closer look

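The genes below had log2 ratios of B-like over T-like cells with opposite signs in the libraries and at least 20 reads in each, and the difference between the libraries was not tested, since each is a single library. Rps27l, a paralog of Rps27, had -0.19 in TAS-Seq and 0.02 in BD WTA, a difference of -0.215. At 20000 reads per cell it was seen in 21.8% of B-like and 25.2% of T-like cells of TAS-Seq and in 6.04% and 7.09% in BD WTA, and 5 cells held 55.8% of its B-like reads in BD WTA. Rps19bp1, the Rps19 binding protein, had -0.36 in TAS-Seq and 2.11 in BD WTA, a difference of -2.47, with 174 reads in B-like and 29 reads in T-like cells of BD WTA. Rps23rg1, a retrogene of Rps23, had -0.05 and 0.77, a difference of -0.822, with 68 and 31 reads in BD WTA, of which 5 cells held 97.1% in the B-like class.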

How the results depend on the processing

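The share of reads was higher in T-like than in B-like cells under every alternative run. In TAS-Seq the difference of the medians was -9.44 percentage points with -ps rows added and -6.70 without the 5 members with the most reads, and the 10 others tried at first stayed inside the interval. In BD WTA it was -5.01 with reads pooled over cells. After the data were seen, alternatives were added in which all rows that share words with the members were counted (-11.7 and -8.81) and in which BD WTA cluster 4 was left out (-7.52) or the unnamed TAS-Seq clusters 5 and 6 were counted as B-like (-7.75) or T-like (-7.03). The number of genes past the limit between the classes, 41, was 67 with clusters made with all genes, 24 without immunoglobulin reads in the denominator, 0 at a limit of 1, 87 at a limit of 0.25, 66 without BD WTA cluster 4 and, also chosen after the data were seen, 27 without the B-like cells over 10% immunoglobulin reads. The background share of all genes tested was 34.5%, 30.1%, 13.3%, 50.1%, 33.8% and 30.4% in these settings, and 38 genes were past the limit with trimmed mean scaling, none of them higher in B-like cells. The pooled share was higher in TAS-Seq than in BD WTA throughout, by 2.97 points with -ps rows, 1.81 without the 5 members with the most reads, 1.43 in B-like cells, 3.65 in T-like cells, 2.04 in T-like cells without BD WTA cluster 4, 2.24 in T-like cells with TAS-Seq cluster 6, 2.03 without mitochondrially encoded reads, 1.84 as a mean over cells and 3.71 with all rows that share words. The number of genes that differed between the methods, 14, was 40 at a limit of 0.5, against 37.4% of all genes. No cause of these changes was tested, apart from those that the construction of an alternative sets. No paired analysis was possible because there was only 1 library of each kind. The number of cells limits rare genes, and the pooled spleens give no spread between animals.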
